A study of Mus musculus with 18 samples.

Results

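The response described here is the change in gene expression from E0 to E1 in mouse dentate gyrus carrying the control hairpin, across every gene of at least moderate expression. Members were all rows of the authors' deposited table for shRNA-Ctrl_E1 against shRNA-Ctrl_E0 with a mean normalized count of at least 50, which held for 12851 of 24015 genes. At that minimum, 1700037C18Rik and Kcnj14 lay just inside (both 50.1 per the authors' deposited table) and Ccl19 (49.97) and D130020L05Rik (49.8) just outside. The mice were C57BL/6 adults of 8 weeks, the tissue was microdissected dentate gyrus, and each library came from 1 animal, with 3 libraries at E0 and 3 at E1. Both groups carried the same control short hairpin RNA, shRNA-Ctrl, so no group without a hairpin enters the comparison. E0 is named as the sham state in the deposited comparison, and E1 is the state after neuronal activation. The sources used here do not give what E1 stands for in time, the stimulus, or how the hairpin was delivered. Values per library were not analysed here, so every value below is a mean over animals, and library depth is unknown. The mice shRNA-cFos_E0 and shRNA-cFos_E1, again 3 libraries each of the same strain, tissue and age with a hairpin named for c-Fos, serve only to show where the control response differs.

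Dentate granule neurons are sparsely active cells whose strong activation switches on immediate early genes, which encode transcription factors and fast effectors, and then a wider set of genes driven in part by those factors. Calcium entry activates the factor CREB at cAMP response elements (CRE), which lie in many activity-regulated promoters. Tissue taken whole also holds interneurons, glia and vessels, so a change in a bulk level can come from any of them, and fewer cells of a type cannot be told apart from less RNA per cell.

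Sequences are shown first for the genes whose known regulation helps to read the results. The rows Mir212 and Mir132, neighbours with a CREB-regulated primary transcript, were 2 of the largest increases outside the immediate early genes. Their mature forms lie on the plus strand of chromosome 11 (GRCm38.p6), miR-212-3p at chr11:75173443-75173464 and miR-132-3p at chr11:75173723-75173744. Capitals mark the seed, bases 2 to 8, which guides target pairing. The sequences are from RefSeq.
miR-132-3p: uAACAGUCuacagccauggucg
miR-212-3p: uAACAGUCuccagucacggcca
miR-132-5p: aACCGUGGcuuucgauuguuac
miR-212-5p: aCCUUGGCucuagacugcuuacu
The 3p forms share the seed AACAGUC, while the 5p forms have seeds of their own. Reads over these rows come from long RNA that covers the hairpins, so they report the primary transcript and not the mature microRNA. The only other microRNA row above the minimum, Mir3064, stood at 0.15 ± 0.17 per the authors' deposited table and did not pass.

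Promoters of 3 genes that rose are shown because they hold a named element of a pathway described below. Each run is the 250 bases before the RefSeq start (GRCm38.p6), 5′ to 3′ on the gene's strand, with the element in capitals. Zdbf2 (chr1:63273019-63273268, plus strand) holds a full CRE, TGACGTCA. Hspa5 (chr2:34771840-34772089, plus strand) holds an endoplasmic reticulum stress element, which is CCAAT, 9 free bases and CCACG. Chac1 (chr2:119350992-119351241, plus strand) holds the composite C/EBP-ATF element TTGCATCA.
Zdbf2: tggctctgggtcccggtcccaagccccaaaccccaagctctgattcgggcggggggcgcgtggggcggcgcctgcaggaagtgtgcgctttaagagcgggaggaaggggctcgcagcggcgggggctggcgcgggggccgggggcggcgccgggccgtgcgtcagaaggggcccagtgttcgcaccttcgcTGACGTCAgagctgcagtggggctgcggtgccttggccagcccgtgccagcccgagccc
Hspa5: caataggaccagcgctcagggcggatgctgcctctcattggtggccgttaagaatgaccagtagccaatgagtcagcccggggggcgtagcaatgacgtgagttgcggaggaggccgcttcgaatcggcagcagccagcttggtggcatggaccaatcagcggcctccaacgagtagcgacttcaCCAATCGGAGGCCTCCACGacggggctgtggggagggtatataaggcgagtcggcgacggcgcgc
Chac1: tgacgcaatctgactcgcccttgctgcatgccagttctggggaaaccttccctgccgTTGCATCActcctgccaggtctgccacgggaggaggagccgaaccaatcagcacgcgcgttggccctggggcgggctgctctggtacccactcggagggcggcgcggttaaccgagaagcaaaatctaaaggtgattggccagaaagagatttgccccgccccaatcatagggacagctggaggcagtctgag
Motifs were searched on both strands of 300-base promoter windows, and a gene can have several windows. Of all 32851 windows, 1.79% held the CRE, 0.119% the endoplasmic reticulum stress element and 0.895% the C/EBP-ATF element. Among windows of genes called at least 2-fold higher and outside the activity lists, 13 of 211 (6.16%) held the CRE, against 1 of 76 (1.32%) for genes called at least 2-fold lower and 2.96% for all genes with a mean of 50 or more. Other elements were more frequent in those 211 windows: 9.95% held the interferon-response core, which is TTTC and TTTC with 2 bases between, and 8.53% the AP-1 site TGAGTCA, against 2.94% and 3.53% for all genes with a mean of 50 or more. Of the interferon-stimulated genes described below, 20 were called at least 2-fold higher, and their part in the interferon-response share was not tested. Windows of endoplasmic reticulum chaperone and unfolded protein response genes held the stress element in 9 of 49 cases (18.4%). The C/EBP-ATF element was present in 4 of 31 windows (12.9%) of integrated stress response and amino acid genes. Heat shock chaperone windows held the heat shock element, which is GAA, TTC and GAA each 2 bases apart, in 7 of 57 cases (12.3%), against 0.603% of all windows. These shares are descriptions with no test, and windows were found for 80.0% to 89.3% of the genes in these groups. Of all genes with a mean of 50 or more, 79.5% had a window. Windows were found for 78.2% of the interferon-stimulated genes, under the 80.0% set as the least coverage for a list, so a motif check of that list is void.

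Expression changed in both directions, and the large changes were mostly increases. By the authors' DESeq2 test at an adjusted p under 0.05, 2410 genes (18.8%) were higher and 2412 (18.8%) lower at E1 per the authors' deposited table, a background of 37.5% called in either direction. The 2 lists of activity genes, the immediate early transcription factors and activity-induced effectors, account for 78 of the 12851 genes, and without them 2340 genes were higher and 2406 lower of 12773 per the authors' deposited table. Of the higher genes 1611 (66.8%) changed by under 1.5-fold, and of the lower genes 1888 (78.3%) did, per the authors' deposited table. At least 2-fold changes were 268 higher (2.09%) and 73 lower (0.568%) per the authors' deposited table. All 64 changes of at least 4-fold were increases there, and 36 of them were in the activity lists, as the authors' deposited table shows. The share called rose little with expression: over 5 equal bins of the genes by mean count it ran from 16.3% to 21.1% for higher and from 14.7% to 20.9% for lower per the authors' deposited table. The median log2 fold change was -0.00 and the median standard error 0.10 per the authors' deposited table. Below, values after ± are the authors' standard errors on the log2 scale, a gene that passed did so at that adjusted p, and a gene may be in more than 1 list.

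**Figure D1:**
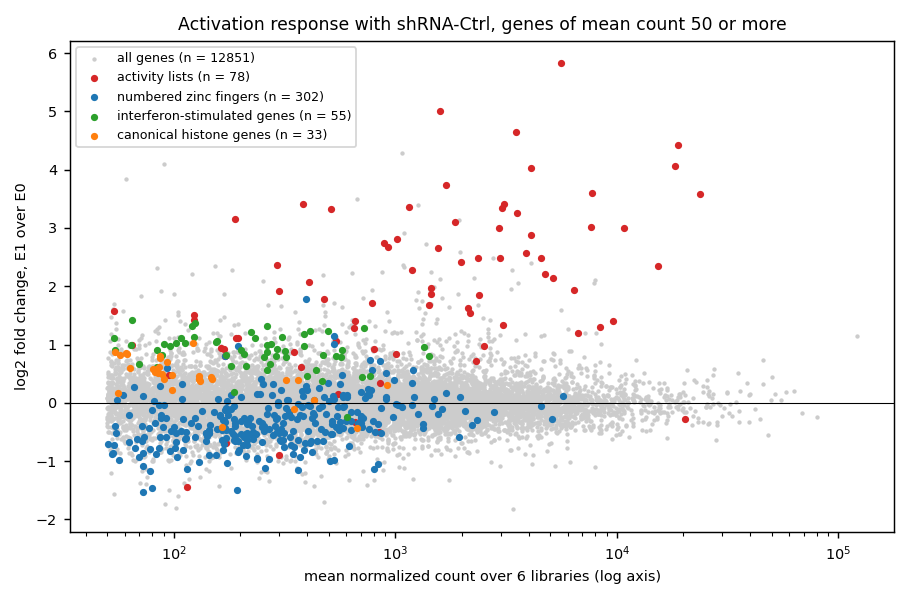
Each point is a gene; the x axis is the mean normalized count of the comparison (log axis) and the y axis the authors' log2 fold change, E1 over E0. Activity-list genes (red) reach 5.83, numbered zinc fingers (blue) lie mostly below 0, and interferon-stimulated genes (green) and canonical histones (orange) mostly above it.

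Outside the activity lists the largest increase was that of Cenpa, the centromeric histone H3 variant, at 4.28 ± 0.15 per the authors' deposited table (adjusted p = 8e-167). Its level, estimated from the authors' deposited table, went from 83.6 to 2067 normalized counts. The rows Mir212 (4.10 ± 0.22, adjusted p = 4.4e-72) and Mir132 (3.85 ± 0.24, adjusted p = 3.5e-54) followed per the authors' deposited table. Their estimated E0 levels were only 5.46 and 3.85 normalized counts, from the authors' deposited table, so the size of these folds rests on few reads. Next came Sertad1 (3.49 ± 0.12), Kcnj2, an inward rectifier potassium channel (3.40 ± 0.13), Frmd6 (3.13 ± 0.09) and Arid5a, an RNA-binding protein (2.90 ± 0.11), per the authors' deposited table. Feedback inhibitors of growth factor signalling were in this set too: Smad7, which blocks TGF-beta receptors, rose by 2.73 ± 0.10 per the authors' deposited table. The remaining genes of the 15 largest were Spry2, Fbxo33, Grasp, Zdbf2, March11, C2cd4b and Kif18a, between 2.58 (Spry2) and 2.31 (Kif18a) per the authors' deposited table. Kif18a, a mitotic kinesin, rose from an estimated 21.9 to 147 normalized counts, from the authors' deposited table.

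Decreases were smaller. The largest was that of Islr2, a neuronal membrane protein, at -1.83 ± 0.11 per the authors' deposited table (adjusted p = 2.2e-58), from an estimated 5346 to 1435 normalized counts. It was followed per the authors' deposited table by Card6 (-1.80 ± 0.21), Zcchc5 (-1.73 ± 0.21) and Dclk3, a doublecortin-like kinase (-1.70 ± 0.15). Among the 15 largest decreases were 4 receptor genes: the melanocortin receptor Mc4r (-1.60 ± 0.18), the lysophosphatidic acid receptor Lpar4 (-1.56 ± 0.22), the cytokine receptor subunit Il20rb (-1.45 ± 0.18) and the erythropoietin receptor Epor (-1.43 ± 0.17) fell per the authors' deposited table. The zinc finger genes Zfp786 (-1.52 ± 0.18), Zfp39 (-1.50 ± 0.13) and Zfp599 (-1.47 ± 0.20) supplied 3 more, per the authors' deposited table. Hpdl, Ccdc177, the Rac exchange factor Tiam2 and the transcription factor Tfap4 completed the set, between -1.50 (Hpdl) and -1.39 (Tfap4) per the authors' deposited table.

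Zinc finger genes fell as a family. Genes named Zfp with a number mostly encode DNA-binding repressors, many with a KRAB domain. Of 302 above the minimum, 166 fell (55.0%) and 22 rose (7.28%) per the authors' deposited table, against 18.8% of all genes in each direction, with a median of -0.34. Under the other scalings tried, between 165 and 181 were lower and between 16 and 22 higher, from the authors' deposited table. Their values ran from -1.52 to 1.78 per the authors' deposited table. Zfp948 was highest, at 1.78 ± 0.14 per the authors' deposited table (from an estimated 167 to 623 normalized counts). It was 1 of 3 members called at least 2-fold higher, against 12 called at least 2-fold lower, per the authors' deposited table. Of the members that did not pass, the most abundant were Zfp365 and Zfp106: Zfp365 stood at 0.12 ± 0.07 and Zfp106 at -0.06 ± 0.08 per the authors' deposited table. Related families leaned the same way. Zscan and Zkscan genes were lower for 10 of 19, and Zbtb genes for 16 of 39 with 7 higher, per the authors' deposited table. Another family that leaned down was Klhl, kelch-like adaptors of ubiquitin ligases, with 12 of 28 lower, per the authors' deposited table. Many of these genes share sequence, so reads may be divided among near copies.

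Canonical histone genes went the other way. They encode the core and linker histones made mainly in dividing cells, from transcripts that mostly lack a poly(A) tail. Of 33 above the minimum, 26 rose (78.8%) and 2 fell per the authors' deposited table, the median being 0.48. Of 13 histone H4 genes 7 reached the minimum, and all 7 rose, by 0.77 to 1.03 per the authors' deposited table, with Hist1h4i at 1.03 ± 0.20. The median mean count of these 7 was 61.6, near the minimum of 50. Their estimated sum went from 353 to 706 normalized counts, so some may have reached the minimum only through their E1 level. Of the H2A and H2B genes above the minimum 9 and 10 rose, of 11 and 13, per the authors' deposited table. The 2 that fell, named after their values were seen, were Hist2h2be (-0.41 ± 0.13) and Hist3h2a (-0.43 ± 0.12) per the authors' deposited table. The linker histone gene Hist1h1c stood at -0.10 ± 0.14 per the authors' deposited table and did not pass. The estimated sum over the family went from 5085 to 6216 normalized counts per the authors' deposited table. Near-identical copies make the share of each histone gene uncertain. Proliferation genes did not move as a block: of 34 cell cycle and mitosis genes 11 rose, Cenpa and the cell cycle inhibitor Cdkn1a (1.76 ± 0.23) furthest, per the authors' deposited table. The 3 that fell were Cdk4 (-0.23 ± 0.09), Cdkn2d (-0.39 ± 0.07) and Mcm6 (-0.59 ± 0.09), per the authors' deposited table.

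**Figure D2:**
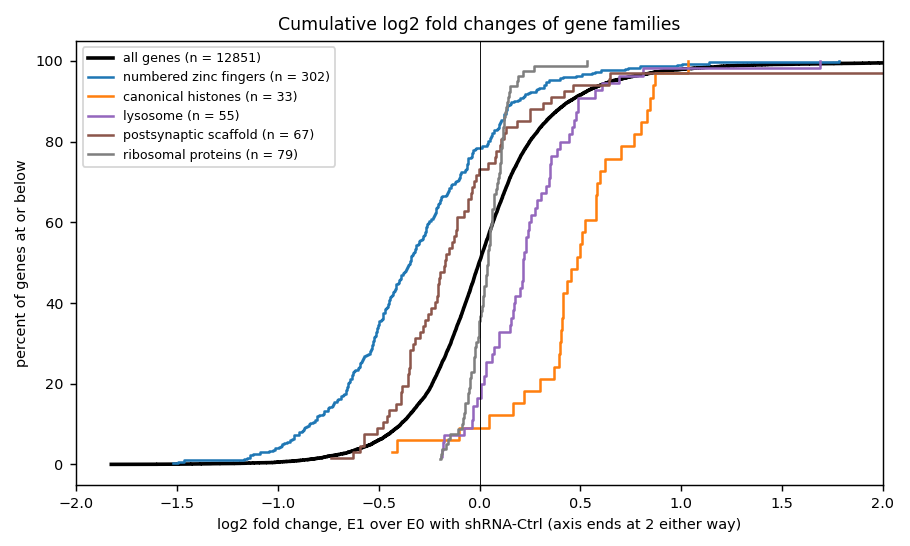
Cumulative share of genes (y axis, percent) at or below each log2 fold change (x axis, E1 over E0, ending at 2 either way) for all 12851 genes and 5 families. Zinc fingers and postsynaptic scaffold genes lie left of all genes (medians -0.34 and -0.17), lysosomal genes and histones right (0.22 and 0.48), and ribosomal proteins form a steep line near 0 (0.04).

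Histone-modifying and remodelling genes mostly changed gene by gene, while the list of DNA methylation and Gadd45 genes leaned higher. The H3K27 demethylase Kdm6b rose by 2.28 ± 0.08 per the authors' deposited table, from an estimated 1121 to 5628 normalized counts. Other histone demethylase and methyltransferase genes that rose included Kdm7a (0.95 ± 0.13), Jmjd1c (0.87 ± 0.11) and the H3K79 methyltransferase Dot1l (0.85 ± 0.09), per the authors' deposited table. In all, 13 of 55 rose (23.6%) and 7 fell (12.7%), against 18.8% of all genes each way. Among remodellers, the ATPase genes Smarca5 (0.95 ± 0.10), Chd2 (0.91 ± 0.06) and Chd1 (0.83 ± 0.09) rose per the authors' deposited table. Their list had 9 higher (16.1%) and 11 lower (19.6%) of 56, near the share of all genes. Deacetylase and acetylase genes leaned lower, 10 of 37 against 4 higher, with Sirt7 at -0.52 ± 0.09 and Sirt6 at -0.41 ± 0.12 per the authors' deposited table. The 4 that rose were Brd2 (0.49), Sirt1 (0.43), Hdac11 (0.34) and Hdac5 (0.27) per the authors' deposited table. DNA methylation and Gadd45 genes rose for 9 of 18 (50%) and fell for 3, with values up to 3.73, per the authors' deposited table. Tet1, which oxidizes methylated cytosine, fell by 0.93 on the log2 scale per the authors' deposited table, whereas Gadd45g, linked to DNA demethylation, rose by 1.87 ± 0.10. The DNA methyltransferase gene Dnmt3a (0.05 ± 0.06) did not pass per the authors' deposited table.

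Genes for making and processing RNA leaned upward. The largest RNA polymerase II subunit gene, Polr2a, rose by 0.77 ± 0.07, and the elongation kinase Cdk12 and its cyclin Ccnk by 0.67 ± 0.10 and 1.23 ± 0.09, per the authors' deposited table. In that list 12 of 40 rose and 3 fell, namely Polr2d (-0.55), Polr2f (-0.39) and Cdk7 (-0.49), per the authors' deposited table. Splicing factor and RNA-binding protein genes rose for 31 of 93 and fell for 9 per the authors' deposited table, with Sf3b1 at 0.79 ± 0.07 and Srsf7 at 0.78 ± 0.07. Nuclear pore genes divided, 8 higher and 5 lower of 25, with Nup98 at 1.15 ± 0.08 and Nup37 at -0.79 ± 0.20 per the authors' deposited table. Mediator, which links transcription factors to polymerase, also divided, 6 higher and 9 lower of 33, with Med7 at 1.27 ± 0.10 per the authors' deposited table. Long non-coding and microRNA host genes rose for 9 of 16 and fell for 1, Miat (-0.39 ± 0.10), per the authors' deposited table. Mir22hg reached 1.43 ± 0.11 and Neat1, the scaffold of nuclear paraspeckles, 1.07 ± 0.12 per the authors' deposited table. Small nucleolar RNA host genes rose for 6 of 11 and fell for 0, led by Snhg1 (0.69 ± 0.13), per the authors' deposited table.

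Ribosome production and the ribosome itself parted. Nucleolar ribosome biogenesis genes rose for 18 of 65, such as Fbl, the methylase of ribosomal RNA (0.68 ± 0.10), and Nolc1 (0.66 ± 0.06), per the authors' deposited table. Dkc1 (-0.25), Bop1 (-0.30) and Emg1 (-0.26) fell per the authors' deposited table. Cytosolic ribosomal protein genes hardly changed: 4 of 79 rose and 2 fell, with a median of 0.04 and a range of -0.20 to 0.53 per the authors' deposited table. Those that rose were Rps27l (0.53), Rpl41 (0.27), Rps28 (0.22) and Rpl21 (0.19), and those that fell Rpl22 (-0.20) and Rps15a (-0.15), per the authors' deposited table. Mitochondrial ribosomal protein genes were lower for 16 of 77 (20.8%) with 2 higher, Mrps6 (0.57) and Mrpl17 (0.22), per the authors' deposited table, a share lower that is near the 18.8% of all genes. Among translation factors 15 of 59 rose and 6 fell, with the helicase gene Eif4a1 at 0.66 ± 0.07 per the authors' deposited table.

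Many protein folding and stress genes rose, but not every chaperone family did. Heat shock chaperone genes rose for 25 of 51 and fell for 2, Dnaja3 (-0.22) and St13 (-0.20), per the authors' deposited table. Dnajb5 (2.05 ± 0.09), Hspa14 (1.80 ± 0.08) and the co-chaperone Bag3 (1.18 ± 0.12) led per the authors' deposited table, whereas the abundant Dnajc5, a synaptic vesicle chaperone, did not pass (0.02 ± 0.05). Taken by name, the Dnajc co-chaperone genes leaned down, with 0 of 25 higher, 7 lower (28%) and a median of -0.17, per the authors' deposited table. Of the endoplasmic reticulum chaperone and unfolded protein response genes, 26 of 51 rose per the authors' deposited table. Hspa5, whose promoter is shown above, rose by 1.20 ± 0.06, and the sensor kinase Eif2ak3 and the transcription factor Xbp1 by 0.67 ± 0.11 and 0.65 ± 0.08, per the authors' deposited table. The sensor Atf6 (-0.25) and the degradation genes Sel1l (-0.36), Derl2 (-0.33) and Edem2 (-0.31) fell, as did Spcs2 (-0.17), per the authors' deposited table. Integrated stress response and amino acid genes, many of them targets of ATF4, rose for 15 of 28, with Sesn2 at 1.31 ± 0.15 and the arginine transporter Slc7a1 at 1.08 ± 0.09 per the authors' deposited table. Chac1, which degrades glutathione, reached 1.02 ± 0.18 per the authors' deposited table, and Slc7a11 (-0.53) and Vldlr (-0.32) fell. Cytosolic aminoacyl-tRNA synthetase genes rose for 8 of 20 and fell for 0, led by Eprs (0.75 ± 0.07), per the authors' deposited table.

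Targets of p53, which restrain growth or promote cell death, rose for 21 of 28, with a median of 0.70 per the authors' deposited table. Plk3 (1.92 ± 0.13), the BH3-only death gene Pmaip1 (2.21 ± 0.22) and Cdkn1a were among them per the authors' deposited table. Several members, such as Plk2 and Btg2, are also known activity genes. The 4 that fell were the death genes Bbc3 (-0.66 ± 0.16) and Bax (-0.28 ± 0.10), Sesn1 (-0.53 ± 0.09) and Rrm2b (-0.24 ± 0.09), per the authors' deposited table. Across the Bcl2 family as a whole 5 rose and 6 fell of 19, and the survival gene Mcl1 rose by 1.13 ± 0.08, per the authors' deposited table. Antioxidant genes under Nrf2 rose for 11 of 30, with Srxn1 at 1.41 ± 0.13 and the heme oxygenase Hmox1 at 0.98 ± 0.18 per the authors' deposited table, and Keap1 (-0.43), Slc7a11, Gsr (-0.25) and Cat (-0.19) fell. Genes linked to axon injury and growth rose for 12 of 24 and fell for 0 per the authors' deposited table, including Sox11 (1.22 ± 0.13) and Stat3 (0.97 ± 0.12).

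Several lists of degradation genes leaned upward as well, but the Klhl ubiquitin ligase adaptors described above leaned down. The families Fbxo and Fbxl did so too, with 9 of 27 and 4 of 15 lower (33.3% and 26.7%). Of these, 4 Fbxo and 0 Fbxl genes were higher, per the authors' deposited table, against 18.8% of all genes in each direction. Lysosomal enzyme and membrane protein genes rose for 25 of 55 (45.5%) and fell for 0, with a median of 0.22 per the authors' deposited table. Gla, alpha-galactosidase A, rose most (1.69 ± 0.10), followed by progranulin, Grn (0.81 ± 0.13), per the authors' deposited table, and Ctsb (0.22 ± 0.10) did not pass. Microglial markers moved with this list (22 of 38 higher, summed level 22559 to 30098 normalized counts as estimated from the authors' deposited table), and their part in it was not tested. Ubiquitin-specific protease genes rose for 16 of 45, led by Usp36 (1.44 ± 0.07) and Usp38 (1.21 ± 0.08), and fell for 4, Usp1 (-0.53), Usp30 (-0.36), Usp21 (-0.32) and Usp47 (-0.23), per the authors' deposited table. Proteasome genes rose for 14 of 46 per the authors' deposited table, furthest the interferon-regulated subunits Psmb9 (1.03 ± 0.28) and Psmb8, and the assembly factor Psmg2 fell (-0.36). Autophagy genes rose for 10 of 38, with Atg101 at 1.19 ± 0.09, and Atg14 (-0.66) and Pik3c3 (-0.20), partners in one lipid kinase complex, fell per the authors' deposited table.

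Respiratory chain and ATP synthase genes were higher for 6 and lower for 3 of 75, with a median of 0.01 per the authors' deposited table. The lower ones included Ndufs3 (-0.29) and Ndufa8 (-0.27) per the authors' deposited table. Tricarboxylic acid cycle genes were higher for 3 (Mdh1, Pcx and Idh2, 0.20 to 0.22) and lower for 1 (Aco1, -0.30) of 28 per the authors' deposited table. Glycolysis and lactate genes rose for 11 of 28, the transporters most: the lactate carrier Slc16a1 reached 1.36 ± 0.09 and the glucose carriers Slc2a1 and Slc2a3 0.77 ± 0.12 and 0.74 ± 0.07 per the authors' deposited table. Pfkl (-0.36) fell per the authors' deposited table, and Gapdh (0.13 ± 0.08) did not pass. Cholesterol and fatty acid synthesis genes divided, 6 higher and 12 lower of 41 per the authors' deposited table. The sterol synthesis enzyme Cyp51 rose by 0.62 ± 0.10, while Insig1, a brake on sterol synthesis, was at -0.47 ± 0.09, per the authors' deposited table.

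**Figure D3:**
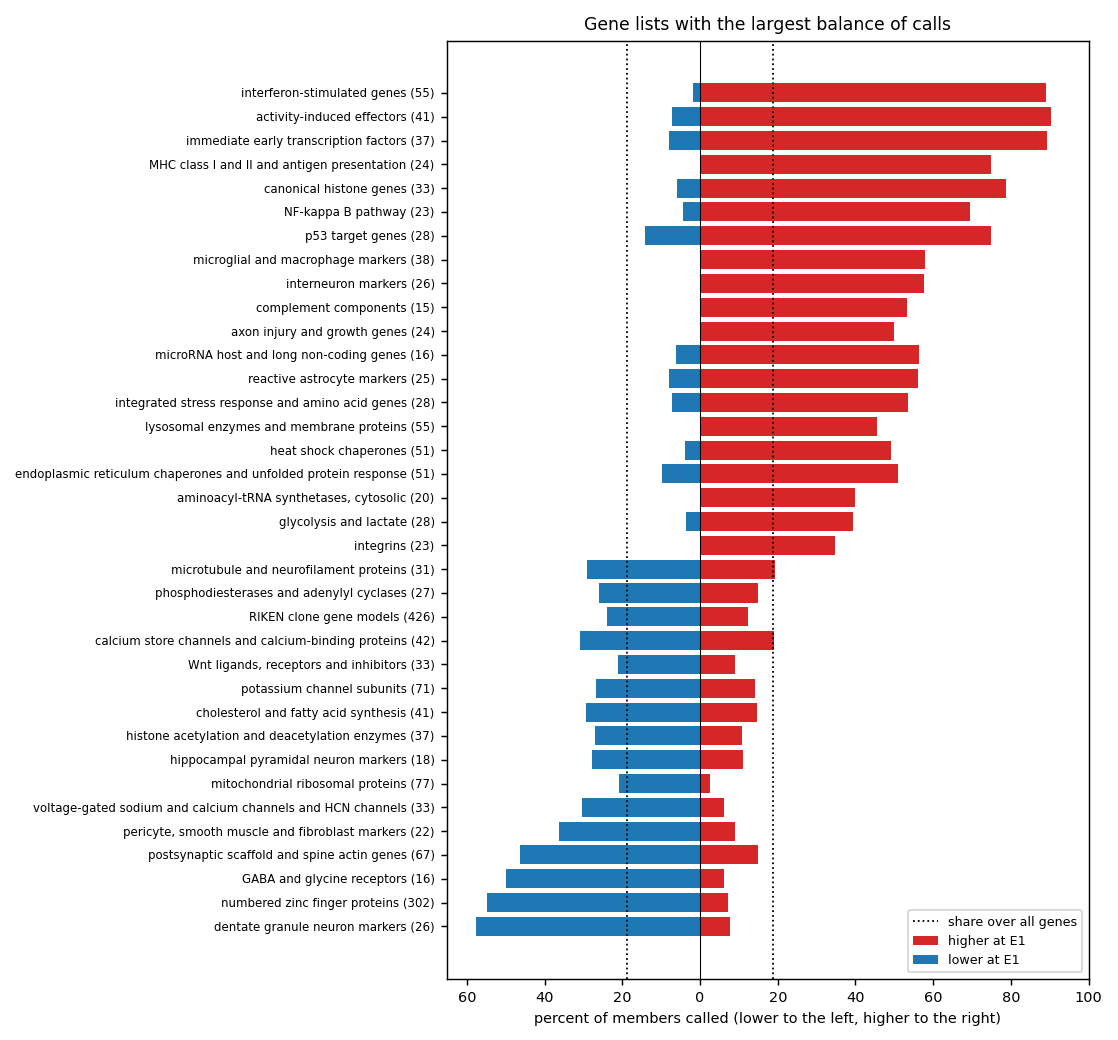
For the lists of at least 15 genes with the largest balance of calls, bars give the percent of members higher (red, right) and lower (blue, left) at E1, with the number of genes in brackets; dotted lines mark the share over all genes, 18.8% each way. Interferon-stimulated genes and the activity lists stand at the top and granule neuron markers and numbered zinc fingers at the bottom.

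Ion channel genes leaned downward, with a few strong increases. Pump genes divided, 4 higher and 3 lower of 20 per the authors' deposited table. Potassium channel subunit genes rose for 10 of 71 (14.1%) and fell for 19 (26.8%) per the authors' deposited table, against 18.8% of all genes each way. Kcnj2 and Kcnf1 (1.27 ± 0.06) rose most, and Kcnj11, the pore of the ATP-sensitive channel (-1.17 ± 0.09), and Kcns1 (-1.16 ± 0.11) fell most, per the authors' deposited table. Voltage-gated sodium, calcium and HCN channel genes fell for 10 of 33 (30.3%), among them Cacng5 (-0.78 ± 0.15), Cacna2d1 (-0.47 ± 0.12) and Hcn2 (-0.42 ± 0.09), per the authors' deposited table. Of this list 2 (6.06%) rose, among them the pacemaker subunit Hcn3 (0.27 ± 0.11), per the authors' deposited table. For the pumps, Atp1b1 (0.34 ± 0.08), Atp1b3 (0.34 ± 0.07), Atp1b2 (0.14 ± 0.04) and Atp2a2 (0.26 ± 0.08) rose, and the calcium extruders Atp2b2 (-0.47 ± 0.08), Slc8a2 (-0.39 ± 0.11) and Atp2b1 (-0.27 ± 0.10) fell, per the authors' deposited table.

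Most receptor genes for GABA fell. Of 12 GABA-A receptor subunits 7 fell and 1 rose per the authors' deposited table. Gabrd, the delta subunit of the extrasynaptic receptors of granule neurons, stood at -0.92 ± 0.17, an estimated 795 to 395 normalized counts, per the authors' deposited table (adjusted p = 4e-07). Its partner Gabra4 (-0.53 ± 0.11) and Gabrb2 (-0.49 ± 0.10) fell too, and Gabra3 was the exception at 0.90 ± 0.15, per the authors' deposited table. Glutamate receptor genes fell for 5 (20.8%) and rose for 3 (12.5%) of 24 per the authors' deposited table. The share lower is near the 18.8% of all genes. Those that fell included the metabotropic Grm2 (-1.33 ± 0.11) and Grm7 (-0.21 ± 0.07), the NMDA subunit Grin2b (-0.32 ± 0.10) and Grid1 (-0.27 ± 0.08), per the authors' deposited table. Grik1 (0.54 ± 0.13), Grm4 (0.46 ± 0.15) and Gria4 (0.28 ± 0.09) rose, and the main AMPA subunit genes Gria1 and Gria2 (both -0.15 ± 0.10) did not pass, per the authors' deposited table. Receptors for monoamines, acetylcholine and other modulators leaned upward, with 12 of 29 higher (41.4%) and 4 lower (13.8%) per the authors' deposited table. Htr2c (1.26 ± 0.18) and Hrh3 (0.79 ± 0.11) rose, and the inhibitory receptors Htr1a (-1.33 ± 0.12), Adra2c (-0.88 ± 0.11) and Htr5a (-0.39 ± 0.13) fell with Drd5 (-0.45 ± 0.13), per the authors' deposited table.

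At the synapse, postsynaptic scaffold genes were often lower, while calls of vesicle genes stood near the background. Postsynaptic scaffold and spine actin genes fell for 31 of 67 (46.3%) and rose for 10, with a median of -0.17 per the authors' deposited table. The risers Homer1 (3.02 ± 0.18) and Synpo (2.34 ± 0.12) are activity genes, and Baiap2 followed at 0.65 ± 0.10, while Rgs14 was at -0.74 ± 0.14, per the authors' deposited table. Vesicle release genes were higher for 13 and lower for 17 of 76, shares of 17.1% and 22.4% that are near the 18.8% of all genes per the authors' deposited table. Syt4 (0.64 ± 0.11) rose and Vamp1 (-0.60 ± 0.10) fell, and Snap25 (-0.22 ± 0.11) did not pass, per the authors' deposited table. Synaptic adhesion genes were equally balanced, 17 higher and 16 lower of 79, with the nectin gene Pvrl1 at 1.05 ± 0.09 and Lrfn3 at -0.88 ± 0.12 per the authors' deposited table. Clustered protocadherins, which give neurons their surface identity, were called rarely: 0 of 50 rose, and 2 alpha, 1 beta and 3 gamma members fell, per the authors' deposited table. These genes share exons, so their counts are uncertain. Calcium store and calcium-binding protein genes fell for 13 and rose for 8 of 42, and the Orai pore subunits parted, Orai1 at 0.92 ± 0.13 against Orai2 at -0.69 ± 0.10 and Orai3 at -0.72 ± 0.09, per the authors' deposited table.

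For the axon, guidance genes were higher for 13 and lower for 18 of 72 per the authors' deposited table. Besides Islr2, the Nogo receptor components Lingo1 (1.27 ± 0.13) and Rtn4rl2 (1.17 ± 0.12) rose, and the ligand Efna2 (-0.92 ± 0.16) fell, per the authors' deposited table. Neurofilament genes Nefm (1.17 ± 0.09) and Nefl (0.73 ± 0.07) and the tubulin regulator Stmn4 (1.17 ± 0.10) rose per the authors' deposited table. Their list of microtubule and neurofilament proteins divided, 6 higher and 9 lower of 31, with values from -1.70 to 1.17 per the authors' deposited table. Most kinesins, dyneins and tubulins stayed close to 0, with 7 higher and 6 lower of 63 and a median of 0.01 per the authors' deposited table. Kif18a (2.31) was the only 1 of them called at least 2-fold higher, per the authors' deposited table.

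Signalling genes held some of the strongest increases. Small GTPases rose for 20 of 61 and fell for 7, led by Arl4d (3.10 ± 0.08), Arl5b (2.81 ± 0.12) and Rasl11a (2.20 ± 0.13), per the authors' deposited table. Regulators of G-protein signalling, which shorten receptor signals, were higher for 4 (23.5%) and lower for 3 (17.6%) of 17, per the authors' deposited table. Both shares are near the 18.8% of all genes. Rgs2 (2.65 ± 0.09), Rgs4 (2.15 ± 0.07), Rgs16 (0.90 ± 0.15) and Rgs12 (0.46 ± 0.09) rose, per the authors' deposited table. Rgs14, Rgs8 (-0.35 ± 0.12) and Rgs7 (-0.34 ± 0.08) fell, per the authors' deposited table. Growth factor genes moved both ways, 9 higher (23.1%) and 11 lower (28.2%) of 39 per the authors' deposited table. The activin subunit Inhba (3.32 ± 0.25) and the Kit ligand Kitl (1.44 ± 0.13) rose, and Igf2 (-0.90 ± 0.29) fell, per the authors' deposited table. Phosphodiesterase and adenylyl cyclase genes fell for 7 of 27 (25.9%), with Pde7b at -0.72 ± 0.10 and Pde1b at -0.61 ± 0.10, per the authors' deposited table. The 4 that rose (14.8%) were Pde11a (0.64), Pde3a (0.60), Pde4a (0.36) and Adcy6 (0.25), per the authors' deposited table.

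Core clock genes rose for 9 of 23 and fell for 4 per the authors' deposited table. The negative limb genes Per1 (2.20 ± 0.08) and Per2 (1.68 ± 0.11) and the repressor Nfil3 (2.75 ± 0.10) rose, as did Rora (0.99 ± 0.11), per the authors' deposited table. The 4 clock genes that fell were Dbp (-0.78 ± 0.12), Hlf (-0.56 ± 0.08) and Tef (-0.51 ± 0.07), the activators that bind the same sites as Nfil3, and Nr1d1 (-0.25 ± 0.10), per the authors' deposited table. Glucocorticoid-linked genes were higher for 10 and lower for 4 of 28, and the higher ones included the shared activity genes Sgk1 (2.05 ± 0.09) and Errfi1 (1.54 ± 0.07), per the authors' deposited table. The lower ones were both corticosteroid receptor genes, Nr3c1 (-0.54 ± 0.10) and Nr3c2 (-0.68 ± 0.08), with the hormone targets Fkbp5 (-0.60 ± 0.10) and Zbtb16 (-0.46 ± 0.09), per the authors' deposited table. Tsc22d3, another such target, stood at 0.01 ± 0.07 per the authors' deposited table and did not pass. Hypoxia-induced genes rose for 7 of 20, with the collagen hydroxylase P4ha1 at 1.20 ± 0.09 and Vegfa at 0.86 ± 0.09, and fell for 3, Egln1 (-0.65), Bnip3 (-0.25) and Car12 (-0.25), per the authors' deposited table.

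All 26 granule neuron markers lay above the minimum per the authors' deposited table, among them Prox1, Dsp and C1ql2. No erythroid marker did (highest mean count 33.8). All 26 astrocyte, 38 microglial, 26 oligodendrocyte and 30 endothelial markers and 18 of 22 pyramidal markers also lay above it, per the authors' deposited table. Passing the minimum therefore cannot tell dentate gyrus from other brain tissue. Granule neuron markers fell for 15 of 26 (57.7%), with a median of -0.34 per the authors' deposited table. Their estimated summed level went from 66782 to 54984 normalized counts, from the authors' deposited table. C1ql2, a synaptic complement-like protein, was at -0.73 ± 0.21, and Fam163b (-0.27 ± 0.11) and Calb1 (-0.06 ± 0.08) did not pass, per the authors' deposited table. The 2 that rose were Btg2, itself an activity gene, and C1ql3 (0.20 ± 0.07), per the authors' deposited table. Pyramidal neuron markers were lower for 5 of 18 (27.8%) and higher for 2 (11.1%), with a median of -0.02, per the authors' deposited table. Amigo2 (0.91 ± 0.10) and Cpne7 (0.63 ± 0.18) rose, per the authors' deposited table. Those that fell included Iyd (-0.55), Cpne4 (-0.32), Nptx1 (-0.27) and Homer3 (-0.20), per the authors' deposited table. Interneuron markers rose for 15 of 26 (57.7%) and fell for 0, with a median of 0.33 per the authors' deposited table. Vip (0.65 ± 0.16), Npy (0.58 ± 0.14), Npas1 (0.56 ± 0.13) and Erbb4 (0.51 ± 0.17) led, per the authors' deposited table. Interneuron changes were thus all below 2-fold, and none exceeded 0.65 per the authors' deposited table. Immature neuron and stem cell markers divided, 6 higher and 7 lower of 27, with a median of 0.02 per the authors' deposited table. Sox11, Dpysl5 (0.79 ± 0.12) and Neurod1 (0.76 ± 0.12) were among the higher and Nes among the lower, per the authors' deposited table. Values ran from -0.59 to 1.22 per the authors' deposited table.

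**Figure D4:**
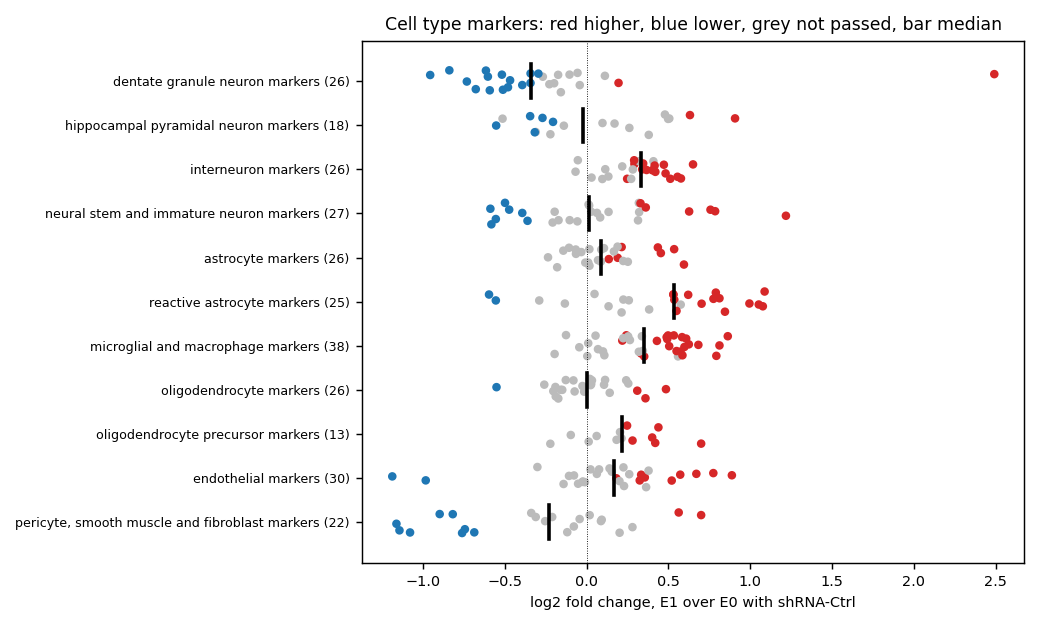
Each point is a marker gene (number in brackets) placed by its log2 fold change at E1 with shRNA-Ctrl (x axis), red where higher, blue where lower and grey where the test was not passed; the black bar is the list's median. Granule neuron and mural or fibroblast medians lie at -0.34 and -0.23, and interneuron, microglial and reactive astrocyte medians at 0.33, 0.35 and 0.54.

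Glia and vessels differed among themselves. Astrocyte markers rose for 7 of 26 and fell for 0, with a median of 0.09 per the authors' deposited table. Plcd4 (0.60 ± 0.13) and Aldh1l1 (0.45 ± 0.10) rose, and the glutamate transporter Slc1a2 (-0.11 ± 0.13) did not pass, per the authors' deposited table. Reactive astrocyte markers rose for 14 of 25, with Serpina3n at 1.08 ± 0.14 and Osmr at 1.05 ± 0.18 per the authors' deposited table, and Nes (-0.55) and Fkbp5 fell. Gfap, the filament used to define that state, was at 0.13 ± 0.12 per the authors' deposited table and did not pass. The reactive list shares Cd14 with the microglial list and also holds the interferon-regulated Psmb8 and the class I gene H2-D1. The part of such shared genes in its count was not tested. Microglial markers rose for 22 of 38 (57.9%) and fell for 0, with the Fc receptor Fcgr1 at 0.86 ± 0.21 and Cd14 at 0.81 ± 0.27 per the authors' deposited table. Of the 25 leukocyte markers in the table, 22 were below the minimum, including Cd3e and S100a8, per the authors' deposited table. Of the 3 above it, 2 rose and 0 fell, per the authors' deposited table. Their estimated sum went from 1133 to 1909 normalized counts. Oligodendrocyte markers were nearly flat, with Trf (0.49), Cryab (0.36) and Sox10 (0.31) higher and Opalin (-0.55) lower of 26, per the authors' deposited table. Precursor markers rose for 6 of 13, led by Cspg4 (0.70 ± 0.11), per the authors' deposited table.

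Endothelial markers rose for 9 of 30 and fell for 2 per the authors' deposited table. The lipid carrier Mfsd2a (0.89 ± 0.13) rose, and the tight junction gene Ocln (-1.19 ± 0.12) and the transcription factor Sox18 (-0.98 ± 0.19) fell, per the authors' deposited table. Pericyte, smooth muscle and fibroblast markers fell for 8 of 22 and rose for 2, Cspg4 and Notch3 (0.56 ± 0.14), per the authors' deposited table. The lowest were Slc6a13 (-1.16 ± 0.29), Ogn (-1.14 ± 0.19) and Ptgds (-1.08 ± 0.28), genes known from the meninges, per the authors' deposited table, along with Igf2. Their list fell from an estimated sum of 16213 to 8547 normalized counts per the authors' deposited table, most of it Ptgds (8007 to 2531). The standard errors of Slc6a13, Ptgds and Igf2 were close to 0.29, the highest of any gene above the minimum per the authors' deposited table, so these folds are imprecise.

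Innate immune genes rose as a group, with wide errors. Interferon-stimulated genes were higher for 49 of 55 (89.1%), with a median of 0.91 per the authors' deposited table, or 1.37 with the authors' shrinkage of fold changes removed. The median standard error of the list was 0.27, against 0.10 for all genes per the authors' deposited table. Oas1b (1.43 ± 0.29) and Rtp4 (1.36 ± 0.24) led, Cmpk2 (-0.25 ± 0.09) alone fell, and Irf1 (0.46 ± 0.23) did not pass, per the authors' deposited table. Antigen presentation genes were higher for 18 of 24 and lower for 0, with the peptide transporter Tap1 at 1.23 ± 0.27 and the class II invariant chain Cd74 at 0.34 ± 0.29, which did not pass, per the authors' deposited table. Reads of class I genes and of Oas1 genes may be divided among near copies. NF-kappa B pathway genes rose for 16 of 23, with the subunit Rel at 1.58 ± 0.21 and the adhesion gene Icam1 at 1.19 ± 0.29, and Tnip1 fell (-0.24), per the authors' deposited table. Complement genes rose for 8 of 15 and fell for 0, with C4b at 0.77 ± 0.20 per the authors' deposited table, while C3 (0.48 ± 0.29) did not pass. Cytokine, chemokine and receptor genes divided, 16 higher and 9 lower of 45, with Lif, a gp130 cytokine, at 1.86 ± 0.21 and the receptor Tnfrsf12a at 1.35 ± 0.26 per the authors' deposited table. Only 45 of 171 genes of that list reached the minimum per the authors' deposited table.

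In the extracellular matrix, the aggrecan gene Acan (0.94 ± 0.15) and the hyaluronan synthase Has3 (0.93 ± 0.20), both of perineuronal nets, rose, and the protease Klk8 (-0.93 ± 0.17) fell, per the authors' deposited table. Perineuronal net and proteoglycan genes rose for 9 of 34 and fell for 2, Gpc4 (-0.40) and Spock3 (-0.27), per the authors' deposited table. Collagens divided equally, 6 higher and 6 lower of 29, and integrins rose for 8 of 23 and fell for 0, with the leukocyte subunit Itgb2 at 0.74 ± 0.19 per the authors' deposited table. Developmental pathways showed no lean upward: Wnt genes fell for 7 of 33 and rose for 3, Fzd1 (0.70), Fzd5 (0.67) and Wnt7a (0.32), per the authors' deposited table. Notch genes divided evenly, 5 each of 24, with Numbl, a Notch inhibitor (0.79 ± 0.10), and Maml3, a Notch coactivator (-0.66 ± 0.13), at the ends per the authors' deposited table.

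Set against the hairpin named for c-Fos, the response differed for 3245 of 12849 genes tested (25.3%), 1426 (11.1%) higher and 1819 (14.2%) lower with shRNA-Ctrl, from the authors' deposited tables. Higher and lower here refer to the signed log2 fold change, so a gene that fell further with shRNA-Ctrl counts as lower. The fold changes of the tables were compared gene by gene, with a normal approximation and Benjamini-Hochberg adjustment over all genes tested. Among the largest changes, Cenpa did not pass the test of the difference (4.28 ± 0.15 against 4.66 ± 0.14, adjusted p = 0.19), nor did Dclk3 (-1.70 against -1.88, adjusted p = 0.64), from the authors' deposited tables. Kif18a (2.31 against 0.82, adjusted p = 2.2e-05), Zdbf2 (2.36 against 1.30, adjusted p = 1.8e-10) and Gla (1.69 against 0.21, adjusted p = 6.2e-18) rose more with shRNA-Ctrl, from the authors' deposited tables. Mir132 (3.85 against 2.70, adjusted p = 0.0078) and Mir212 (4.10 against 3.04, adjusted p = 0.01) did too, from the authors' deposited tables. Islr2 (-1.83 against -0.63, adjusted p = 3.2e-14) and Htr1a (-1.33 against -0.59, adjusted p = 0.0006) fell more with shRNA-Ctrl, from the authors' deposited tables.

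Families differed in how far the hairpins parted. Zinc fingers had medians of -0.34 and -0.20, with 32 of 302 lower and 5 higher with shRNA-Ctrl, shares of which neither exceeds the background, from the authors' deposited tables. Interneuron markers had medians of 0.33 and 0.38 and 3 of 26 differed, from the authors' deposited tables. Canonical histones had medians of 0.48 and -0.05 and 16 of 33 were higher with shRNA-Ctrl, from the authors' deposited tables. They included the 7 H4 genes above the minimum, whose counts lay near it. Lysosomal genes had medians of 0.22 and -0.23, p53 targets 0.70 and -0.14, and heat shock chaperones 0.20 and 0.01, from the authors' deposited tables. Postsynaptic scaffold genes had medians of -0.17 and 0.25 and calcium store genes -0.11 and 0.32, from the authors' deposited tables. Granule neuron markers moved the same way as these synaptic and calcium lists (-0.34 and 0.23, from the authors' deposited tables), and 17 of 26 were lower with shRNA-Ctrl. Microglial markers moved the other way (0.35 and -0.32, from the authors' deposited tables). The part of these markers in these differences was not tested.

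**Figure D5:**
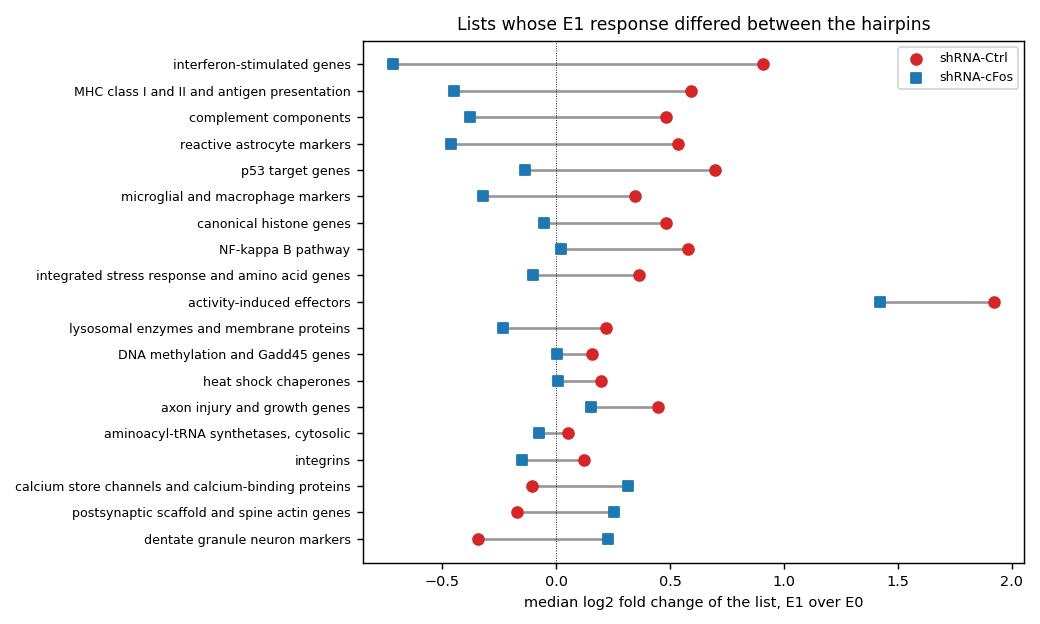
For the lists with at least 3 times the background share of genes differing in 1 direction, points give the median log2 fold change (x axis, E1 over E0) with shRNA-Ctrl (red circles) and shRNA-cFos (blue squares). Interferon-stimulated genes are farthest apart (0.91 and -0.71), and granule neuron markers lie in the opposite order (-0.34 and 0.23).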

How the data were processed

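RNA-seq libraries of microdissected dentate gyrus were grouped by their titles, and shRNA-Ctrl_E1 was compared with shRNA-Ctrl_E0, 3 libraries each, 1 per mouse per the labels' protocols. TopHat2, DESeq2 and the build mm9 are named in the submitters' processing notes, without versions. For counting, annotation and strand the settings are not given in the sources used, so overlapping genes are taken as deposited. Per the file headers, the authors' table gives each gene's mean normalized count, a signal in units of counts adjusted by size factors. Its log2 fold change and standard error come from the authors' DESeq2 fit, and the values are shrunken toward 0 as a zero-centred prior with a standard deviation of 0.586 (0.527 with shRNA-cFos) would give. The deposited Wald score is the ratio of that fold change to its standard error. The deposited p-value is that of the score, and the deposited adjusted p was used as it stands, over the whole table. No column held values per library (0 columns), so no library was left out or averaged here, and precision is that of the authors' standard errors.

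Computed here, with Python 3.11.15, pandas 2.3.3 and numpy 2.4.6, were counts of members called at an adjusted p under 0.05 among genes with a mean count of at least 50, medians, and levels at E0 and E1. Levels come from the mean count and the fold change with the prior removed, and carry no error. The difference between hairpins was tested by dividing the difference of fold changes by its standard error, both errors added in squares, 2-sided with a normal approximation and Benjamini-Hochberg adjustment over 14386 genes. The steps were tested on simulated data. Promoter and microRNA sequences are RefSeq's for GRCm38.p6, a later build than mm9, and were joined by gene name (79.5% of genes).

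The members and the 92 gene lists were chosen with earlier results of these data known, and no list's count is independent support. Named genes were, for each list, up to 4 called members that changed most, up to 2 abundant members that did not pass, and the 15 largest changes each way outside the activity lists. Members named to account for counts of 5 or fewer, such as C1ql3, Hlf, Tef, Dbp, Nr3c1 and Nr3c2, and Chac1 for its promoter, were chosen after their values were seen. Alternatives were a stricter threshold, a fold minimum, other count minimums, 2 scalings and removal of the prior. The table for c-Fos overexpression was not used here. A few members of the lists are not reported here.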

Additional observations from a re-analysis of the deposited data

Results flagged for a closer look

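The test of the difference between hairpins picked out 3245 genes whose E1 response with shRNA-Ctrl differed from that with the other hairpin, a count from the authors' deposited tables. Of 88 lists with at least 10 tested members, 19 held at least 3 times the background share in 1 direction. Direction is that of the signed log2 fold change. It was higher with shRNA-Ctrl for 53 of 55 interferon-stimulated genes, 19 of 24 antigen presentation genes, 9 of 15 complement genes, 22 of 38 microglial markers and 13 of 25 reactive astrocyte markers. It was also higher for 20 of 28 p53 targets, 14 of 28 integrated stress response genes, 8 of 20 aminoacyl-tRNA synthetases, 23 of 51 heat shock chaperones and 28 of 55 lysosomal genes. The same held for 16 of 33 canonical histones, 11 of 23 NF-kappa B genes, 17 of 41 activity-induced effectors, 8 of 23 axon injury genes, 10 of 23 integrins and 7 of 18 DNA methylation and Gadd45 genes. It was lower with shRNA-Ctrl for 17 of 26 granule neuron markers (medians of -0.34 with shRNA-Ctrl and 0.23 with the other hairpin), 39 of 67 postsynaptic scaffold genes and 21 of 42 calcium store and calcium-binding protein genes. All counts were computed from the authors' deposited tables, whose arms were normalized separately and share no animals.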

How the results depend on the processing

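Counts of called genes moved mostly with a fold minimum. Requiring at least 1.5-fold left 799 higher and 524 lower genes, 60.4% of them higher against an even split without it, from the authors' deposited table. For the difference between hairpins, 1.5-fold left 1527 genes and an adjusted p under 0.01 left 2114, of 3245, from the authors' deposited tables. At an adjusted p under 0.01, with no minimum mean count, with a minimum of 200, re-centred on the median or with the prior removed, the counts higher and lower stayed within 1.5 times the main ones. Scaling both groups to equal summed levels (a shift of 0.04 log2) gave 2074 higher and 2981 lower, 41.0% higher, from the authors' deposited table. Of 527 named genes, that scaling put 7 below the threshold and 11 above it, and none changed sign. Counts of several lists moved there, from the authors' deposited table. Astrocyte markers had 3 higher in place of 7, and glutamate receptors 8 lower in place of 5. Protocadherins had 3 higher and 11 lower, integrins 5 and 1, cytosolic ribosomal proteins 2 and 4, and respiratory chain genes 4 and 5. Kinesins, dyneins and tubulins had 5 higher and 13 lower, synaptic adhesion genes 15 and 21, and histone methyltransferases and demethylases 11 each. Lists described as leaning 1 way moved too: splicing and RNA-binding genes had 26 higher and 13 lower, with a median of 0.01. Autophagy genes had 7 and 4, lysosomal genes 22 and 2, and mitochondrial ribosomal proteins 1 and 23. The median of the interferon list rose from 0.91 to 1.37 with the prior removed, since its genes have wide errors and were strongly shrunken.

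No paired analysis was possible because the deposited tables hold no values per library. For the same reason no library was left out, and whether 1 animal carries a result, such as the interferon or meningeal genes, was not tested. Depth per library is unknown, and genes under a mean count of 50 were not described.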

Other observations

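The Nogo receptor components, the neurofilament genes and Stmn4 were not the only structural genes to change: among genes of axons and dendrites, Dctn6 (-0.39 ± 0.09) and Kif3b (-0.38 ± 0.06) fell and Kif21b (0.36 ± 0.09) rose, per the authors' deposited table. Solute carriers were balanced, with 52 higher and 51 lower of 237 per the authors' deposited table. The zinc exporter Slc30a1 (1.18 ± 0.10) and the insulin-responsive glucose carrier Slc2a4 (1.19 ± 0.22) rose, per the authors' deposited table. Metal-binding metallothioneins rose as well, Mt1 by 0.86 ± 0.12 and Mt2 by 0.71 ± 0.13, while the neuronal Mt3 (0.02 ± 0.10) did not pass, per the authors' deposited table. Among DNA repair genes 8 of 46 rose and 6 fell, with Ercc5 (0.71 ± 0.10) and Tdp2 (0.71 ± 0.11) highest and Apex1 (-0.55 ± 0.11) and Xpa (-0.53 ± 0.14) lowest, per the authors' deposited table.

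Unnamed gene models also responded. The RIKEN clone model A830010M20Rik rose by 1.60 ± 0.10 and the model Gm13889 by 2.13 ± 0.09, per the authors' deposited table. RIKEN clone models as a whole were lower for 102 of 426 (23.9%) and higher for 52 (12.2%), per the authors' deposited table. What these models encode is not given in the files.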
